A study of Mus musculus with 6 samples.

Results

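Follicular helper-like CD4 T cells of the mouse spleen were picked cell by cell from splenocyte data that recorded RNA and surface protein together (CITE-seq), and 217 of 20161 kept cells met the definition. A cell was a member if it had 300 to 5000 genes and at most 10% mitochondrial UMIs (unique molecular identifiers, 1 per captured RNA molecule), at least 41 counts of the CD4 antibody, at most 64 of the CD8a antibody, at least 1 UMI of the CD3 genes Cd3d, Cd3e and Cd3g together, no UMI of Cd79a or Foxp3, and a UMI of at least 2 of the 5 markers Pdcd1, Cxcr5, Sostdc1, Tox2 and Maf. The cells with the same gate and fewer than 2 markers, 1458 in all, are called other Foxp3-zero CD4 cells below.

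Male C57BL/6 mice had received 8 tail vein injections of 100 µL over 24 days before their spleens were profiled. One group was 20 months old and received PF4 (platelet factor 4, a chemokine stored in platelets) at 5 µg/mL, a second was 20 months old and received saline, and the third was 3 months old and received saline. Spleens of 5 mice were pooled in each group, so each group had 1 RNA library and 1 antibody library and mice could not be separated. Each barcode ends in 1, 2 or 3, and the labels do not say which ending is which group, so libraries 1, 2 and 3 are names only. Age and PF4 were therefore not compared, and no p-value is given, since cells of 1 library are not replicates. Intervals in brackets are 95% intervals that cover counting error only.

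Follicular helper T cells (Tfh) are the CD4 T cells that enter B cell follicles and help B cells form germinal centres. The repressor BCL6 directs their differentiation, the receptor CXCR5 draws them towards the chemokine CXCL13 in the follicle, and loss of the receptors that hold T cells in the T zone or let them leave the organ accompanies this move. In the follicle they give B cells IL-21, IL-4 and CD40 ligand, and they carry much PD-1 and ICOS at the surface. In aged mice, CD4 T cells with surface PD-1 and the genes Sostdc1 and Spp1 are also known from the spleen.

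The 5 markers that chose the cells cover a receptor that restrains T cell activation (Pdcd1, PD-1, chr1:94038305-94052553, minus strand), the follicle-homing receptor (Cxcr5, chr9:44511787-44561877, minus strand), a secreted antagonist of BMP and WNT signals (Sostdc1, chr12:36314139-36318452, plus strand), a transcription factor that favours Tfh differentiation (Tox2, chr2:163203125-163324170, plus strand) and a transcription factor of Tfh and IL-10-producing T cells (Maf, chr8:115682942-115707794, minus strand). Coordinates are those of the mm10 annotation. Maf was detected in 59 of 60, 99 of 104 and 51 of 53 members of libraries 1, 2 and 3. Pdcd1 was found in 36, 57 and 32 members, and Cxcr5 in 27, 47 and 26. Sostdc1 was found in 8, 40 and 8 members and Tox2 in 14, 42 and 17. The marker that most members shared was thus Maf, and the 3 libraries differed most in Sostdc1. The most frequent marker pairs with nothing else were Cxcr5 with Maf (46 cells), Pdcd1 with Maf (43 cells) and Tox2 with Maf (19 cells), and 8 cells had all 5 markers.

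Because these genes made the choice, each marker was also read in cells picked without it. Among cells of the gate with at least 2 of the other 4 markers, Pdcd1 was detected in 45.6% (37.9 to 53.4), against 1.65% (0.996 to 2.56) of the cells with none of the other 4. Cxcr5 was detected in 30.4% (23.5 to 37.9), against 2.75% (1.89 to 3.86). Sostdc1 was detected in 20.3% (14.98 to 26.5), against 0.264% (0.0545 to 0.770), which is 3 of 1136 cells. The share for Tox2 was 25% (19.04 to 31.7), against 0.439% (0.143 to 1.02). The share for Maf was 91.7% (84.2 to 96.3), against 19.01% in cells with none of the other 4. In every library each marker was more frequent in cells that carried 2 others than in cells that carried none. Median depth over all libraries was 3958 UMIs per cell against 4503 for the Pdcd1 reading and 4457 against 4390 for Maf. In library 3 the cells with 2 other markers were the deeper ones, at 5107 against 4654 UMIs for Pdcd1, 4911 against 4654 UMIs for Cxcr5 and 5512 against 4639 UMIs for Maf.

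Detection was also read in cell types that should lack a gene. Pdcd1 was detected in 57.6% of members (median 3968 UMIs), against 0.136% of 9570 B cells (median 3290 UMIs), which were defined by at least 2 Cd79a UMIs and no CD3 UMI. Sostdc1 was detected in 25.8% of members, against 0.0528% of 1894 cells of a CD8 T cell gate (median 6198 UMIs). Maf was detected in 3.23% of B cells and Tox2 in 0.366%. Cxcr5 RNA is normal in B cells and was detected in 30.7% of them, and the CD8 gate, which should mostly lack it, had 6.60%. Cells of the same CD4 gate with a Foxp3 UMI, which the definition left out, carried the markers more often than most of these. Their shares were 16.2% for Pdcd1, 13.2% for Cxcr5, 3.05% for Sostdc1, 9.64% for Tox2 and 56.3% for Maf. Thinned to 2000 UMIs per cell, which left out 19 members, the members' shares became 36.9% for Pdcd1, 19.7% for Cxcr5, 22.7% for Sostdc1, 20.7% for Tox2 and 78.8% for Maf. The thinned shares of the other Foxp3-zero CD4 cells were 0.751%, 1.002%, 0.167%, 0.167% and 11.9% in the same gene order, and the order of the groups was fixed by the definition.

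Members made up 19.2% (14.96 to 24.0) of the Foxp3-zero CD4 gate in library 1, with 60 of 313 cells. The share was 18.98% (15.8 to 22.5) in library 2, with 104 of 548 cells. In library 3 it was 6.51% (4.91 to 8.43), with 53 of 814 cells. Libraries 1 and 2 did not differ beyond counting error, and both lay above library 3 with no overlap of intervals. The median depth of the members was 3413, 4023 and 4669 UMIs in libraries 1, 2 and 3, so the library with the smallest share had the deepest cells. Cells with at least 3 markers numbered 20, 51 and 17, which is 6.39% (3.95 to 9.70), 9.31% (7.01 to 12.1) and 2.09% (1.22 to 3.32) of the gate. Among members, cells with at least 3 markers took 33.3%, 49.0% and 32.1% in libraries 1, 2 and 3.

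**Figure D1:**
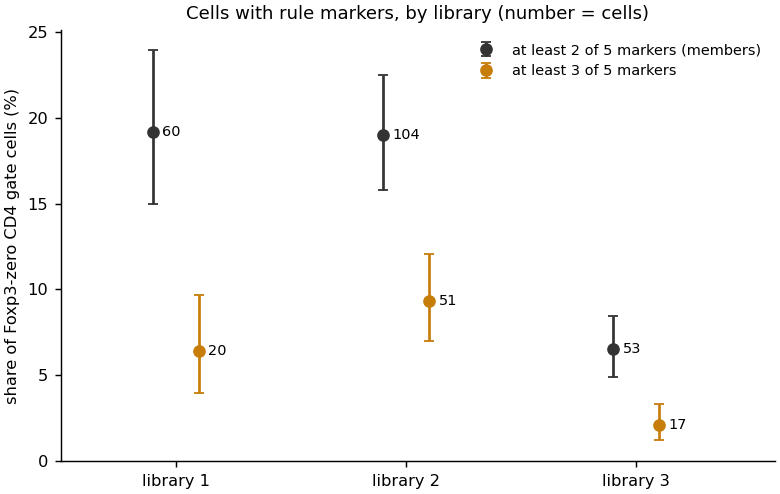
Share of Foxp3-zero CD4 gate cells (%) with at least 2 of the 5 markers (the members) and with at least 3, in each library. Points are shares, bars are exact binomial 95% intervals and the numbers are cells; libraries 1 and 2 stood at 19.2% and 18.98% and library 3 at 6.51%.

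The edge of the definition was gradual. Just inside it, 40, 53 and 36 cells had exactly 2 markers, and just outside it, 97, 121 and 107 cells had exactly 1. Bcl6 stood at 20.7, 38.6 and 17.05 CPM (RNA counts scaled to 1000000 UMIs) with exactly 2 markers, against 18.4, 23.2 and 13.2 CPM with exactly 1. Cd200 stood at 89.8, 145 and 96.6 CPM with exactly 2 markers, against 73.6, 55.7 and 59.4 CPM with exactly 1. The naive and memory survival receptor gene Il7r stood at 476, 367 and 494 CPM with exactly 2 markers, against 853, 759 and 742 CPM with exactly 1, and at 98.8, 169 and 59.0 CPM with at least 3. Median PD-1 antibody counts were 9.5, 8 and 10 with exactly 2 markers, against 6, 7 and 6 with exactly 1. Cells at the edge thus lay between the cells with at least 3 markers and the cells with 1 marker in Il7r, in every library.

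Members and other Foxp3-zero CD4 cells of the same library were then compared gene by gene. A gene is called higher or lower here by size alone, when the ratio of CPM passed 1.5-fold in the same direction in all 3 libraries. Among 6660 genes of at least 20 CPM in members or in the other cells, with the 3 libraries pooled, 509 (7.64%) were higher in members and 134 (2.01%) were lower. Since RNA of these same cells made the choice, these ratios are a description. The genes with the largest ratios that held in every library, beside 4 of the markers, were Ccdc28b, Rgs16, Spp1, Hist1h2bb, Lag3, Cdkn2c, Ccl4, Ifng, Phactr2, Ccna2 and Cenpf. The 10 genes with the smallest ratios were Satb1, Ly6c1, S100a9, Igfbp4, Galnt10, Treml2, Actn1, St8sia6, S100a8 and Lef1. Many genes of the Tfh programme were among those higher, and genes of naive T cells were among those lower.

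Of 33 Tfh genes listed outside the definition, 29 reached 20 CPM, and 21 of these were higher in members and none lower. The median log2 ratio of the list was 1.64, against 0.23 over all genes. Bcl6, the repressor that directs Tfh differentiation, stood at 32.5, 70.0 and 57.6 CPM in members of libraries 1, 2 and 3, against 7.93, 8.90 and 10.6 CPM in other Foxp3-zero CD4 cells. The ratios were 4.10 (1.34 to 12.5), 7.86 (4.22 to 15.3) and 5.42 (2.81 to 10.0). All 3 member values lay above all 3 values of the other cells. Ascl2, a transcription factor that starts CXCR5 expression, rested on few molecules, with 7, 21 and 7 counts in members against 2, 2 and 1 in the other cells, and ratios of 14.4 (2.73 to 142), 38.9 (9.498 to 342) and 85.4 (10.98 to 3851). Tox, a nuclear factor of chronically stimulated T cells and Tfh, had 382, 272 and 284 CPM in members, against 124, 66.2 and 56.6 CPM. Batf, Irf4, Id3, Cebpa, Nfatc1, Pou2af1 and Hif1a were the other genes of transcriptional regulators on the list that were higher.

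Among the signals that Tfh pass to B cells, Il21 was the most unequal between libraries. It stood at 48.8, 261 and 46.8 CPM in members, against 15.9, 5.00 and 0.885 CPM in other Foxp3-zero CD4 cells. It was carried by 9, 30 and 6 member cells, against 7, 6 and 3 of the other cells, and by 5 of 9570 B cells (0.0522%). Il4 stayed under the limit, with 0, 3 and 3 counts in members, against 2, 7 and 4 counts in the other cells. Cd40lg, the ligand of CD40 on B cells, did not pass the size limit, with 73.2, 84.4 and 64.8 CPM in members, against 42.6, 57.8 and 67.5 CPM in the other cells. Tnfsf8, which encodes the CD30 ligand, stood at 215, 479 and 223 CPM in members, against 100.1, 82.8 and 59.3 CPM, with no overlap between the groups.

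The receptors and adaptors of T cell and B cell contact were mixed, and Cd200, Sh2d1a, Slamf6 and Izumo1r were higher. Cd200, an inhibitory ligand carried by Tfh, stood at 102, 214 and 212 CPM in members, against 37.7, 37.2 and 25.1 CPM in other Foxp3-zero CD4 cells, with ratios of 2.70 (1.56 to 4.59), 5.74 (4.19 to 7.93) and 8.47 (5.97 to 11.9), and 25 of the 59 member counts in library 3 came from 1 cell. Sh2d1a, the adaptor SAP that Tfh need for stable contact with B cells, stood at 528, 278 and 234 CPM, against 160, 111 and 80.2 CPM. Slamf6, a receptor that signals through SAP, had nearly the same ratio in each library, at 2.41, 2.45 and 2.37. Izumo1r, which encodes folate receptor 4, stood at 337, 537 and 504 CPM, against 202, 156 and 81.4 CPM. Icos, the costimulator that sustains Tfh, passed the limit in libraries 2 and 3 only, with 102, 185 and 169 CPM in members, against 70.4, 54.5 and 42.8 CPM. Its ratio in library 1 was 1.44 (0.877 to 2.31). Cells of the CD4 gate with a Foxp3 UMI carried Izumo1r and Icos about as often as members. Izumo1r was detected in 69.0% of them, against 68.7% of members, and Icos in 42.1%, against 42.9%. Cd200 differed, at 13.2% of the Foxp3-positive cells, against 34.1% of members. The receptors Btla, Cd84, Il6ra and Il6st did not pass the size limit in every library.

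**Figure D2:**
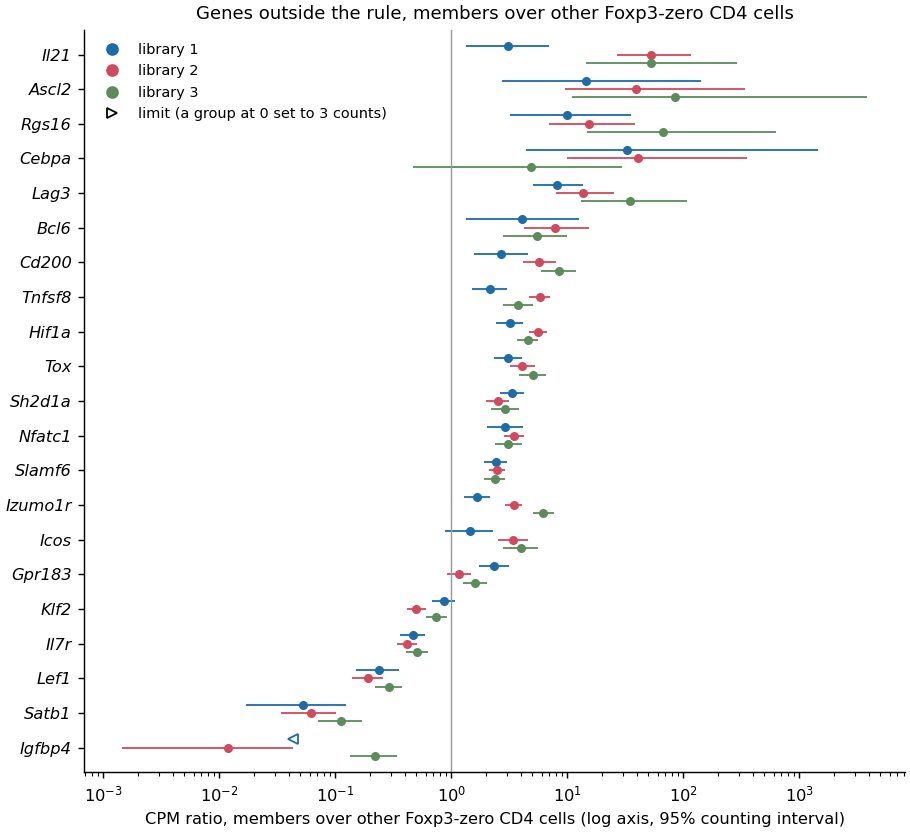
Ratio of CPM in members over other Foxp3-zero CD4 cells (log axis) for 21 genes that the definition did not use, by library, with 95% counting intervals; an open triangle is a limit where a group had 0 counts. Il21, Bcl6 and Cd200 lay above 1 in all libraries and Satb1, Lef1 and Il7r below 1.

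Genes of position in the organ were less even. Among genes that hold T cells outside the follicle or let them leave the organ, Ccr7 was lower in members and Prdm1 was higher. Ccr7, the receptor that draws T cells to the T zone, stood at 32.5, 63.8 and 119 CPM in members, against 147, 212 and 253 CPM in other Foxp3-zero CD4 cells. S1pr1, the egress receptor, stood at 232, 140 and 277 CPM in members, against 311, 454 and 445 CPM, and its ratio of 0.745 in library 1 missed the limit. Klf2, a factor that maintains S1pr1, had ratios of 0.860, 0.501 and 0.744. Gpr183, whose receptor guides cells to the follicle edge, was not lower, with 305, 195 and 277 CPM in members, against 130, 168 and 172 CPM. Prdm1, which encodes BLIMP-1, a repressor that opposes BCL6, had only 12, 12 and 5 counts in members, and its intervals against the other cells reached 1 in libraries 2 and 3.

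Naive T cell genes were lower as a group. Of 12 listed, 9 were lower in members and none higher, with a median log2 ratio of -1.74. Satb1, a chromatin organizer of naive T cells, stood at 20.3, 30.9 and 79.2 CPM in members, against 388, 500.4 and 704 CPM in other Foxp3-zero CD4 cells. Its ratios were 0.0523 (0.0169 to 0.123), 0.0617 (0.0344 to 0.102) and 0.113 (0.0704 to 0.171). Lef1, a transcription factor of naive and early T cells, stood at 102, 96.7 and 202 CPM, against 431, 505 and 697 CPM. Igfbp4 was at 0 counts in library 1 and at 4.11 and 72.0 CPM in libraries 2 and 3 of the members, with 12 of the 20 counts of library 3 in 1 cell, against 283, 345 and 329 CPM in the other cells. Tcf7, the partner of Lef1 that Tfh keep, did not share this pattern, with ratios of 0.916, 0.849 and 1.04. The single library that stood nearest to the other cells in Satb1, Lef1 and Igfbp4 was library 3.

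Members also carried RNA of other T cell programmes. Ikzf2, which encodes HELIOS and is usual in regulatory T cells, stood at 764, 825 and 666 CPM in members, against 239, 192 and 69.9 CPM in other Foxp3-zero CD4 cells. In Foxp3-positive CD4 cells of the same libraries it stood at 1998, 2368 and 1238 CPM, so the members lay between. Of 9 regulatory and IL-10-producing T cell genes tested, Ikzf2, Tnfrsf4, Tnfrsf9, Il10, Lag3 and Nrp1 were higher. Nrp1 stood at 130, 288 and 238 CPM in members, against 73.3, 54.5 and 24.2 CPM. Il10 rested on 1, 3 and 1 member cells and 34 of its 40 counts came from 1 cell of library 2. Il2ra, the high-affinity IL-2 receptor chain that regulatory cells carry, had 1, 10 and 6 counts in members and stayed under the filter, at 16.8 CPM in members and 18.2 CPM in other Foxp3-zero CD4 cells over the pooled libraries. Lag3, an inhibitory receptor, stood at 211, 130 and 61.2 CPM in members, against 25.8, 9.45 and 1.77 CPM. It was 1 of 3 higher genes among 6 checkpoint receptor genes, with Cd200 and Entpd1, which encodes the ATP-degrading enzyme CD39.

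Cytotoxic and T helper 1 genes were mixed. Of 13 tested, Gzmk, Ifng, Ccl4 and Ccl3 were higher in members and Ly6c2 was lower. Ccl4 rested on few cells. It was carried by 9, 3 and 2 members of libraries 1, 2 and 3, and 1 cell of each held 39, 10 and 22 counts. Ifng, the cytokine interferon gamma, stood at 69.1, 98.8 and 46.8 CPM in members, against 11.9, 6.12 and 2.65 CPM in other Foxp3-zero CD4 cells, and was carried by 10, 12 and 7 member cells. Gzmk, a granzyme gene of aged and memory T cells, stood at 293, 107 and 93.6 CPM, against 114, 28.4 and 0.885 CPM, and by cells it was found in 20, 11 and 4 members. Cxcr3, a chemokine receptor to which PF4 is known to bind, stood at 106, 140 and 122 CPM in members, against 89.2, 53.4 and 21.5 CPM, and did not pass the limit in library 1. Of 9 genes known from aged PD-1 CD4 cells, 7 were higher and none lower, namely Tnfsf8, Spp1, Cebpa, Ccl3, Ccl4, Gzmk and Sostdc1, of which Sostdc1 took part in the choice. Spp1, which encodes osteopontin, was carried by 2, 17 and 3 members, against 2, 2 and 0 of the other cells. Cytokine genes of other helper types were nearly absent, with 0 counts of Il17a, Il5 and Il13 in members and in other Foxp3-zero CD4 cells. A count of 0 in the 1009824 RNA UMIs of the members allows up to 3 counts.

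Cell cycle genes were higher in members, with 8 of 12 past the limit and a median log2 ratio of 2.70. Hmgb2, a chromatin protein gene of the list, was spread over 37, 63 and 39 members, while others came from few cells. Mki67, a marker of cycling cells, stood at 362, 298 and 140 CPM in members, against 152, 6.67 and 7.96 CPM in other Foxp3-zero CD4 cells, but only 7, 9 and 6 members carried it, and 1 cell held 54 of 89, 57 of 145 and 33 of 39 member counts. Ccna2, a cyclin gene of S and G2 phase, was carried by 2, 3 and 1 members, Cenpf, a centromere protein gene, by 3, 4 and 1, and the histone gene Hist1h2bb by 2, 3 and 1. Cdkn2c, an inhibitor of the cell cycle kinases that was also among the genes with the largest ratios, was spread over more cells, 11, 13 and 10. Altogether 13, 13 and 13 members had a Mki67 or Top2a UMI, which is 21.7%, 12.5% and 24.5%. Among other Foxp3-zero CD4 cells, 38 of 253, 23 of 444 and 47 of 761 had one. Without such cells on both sides the mean log2 ratio of Tubb5, a tubulin gene among the 8, turned to -0.13.

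The remaining lists had fewer or smaller differences. Of 16 memory and migration genes tested, 8 were higher and none lower, among them S100a4, a calcium-binding protein gene of activated T cells, at 1744, 778 and 349 CPM in members, against 355, 193 and 83.8 CPM. Of 10 activation and immediate early genes tested, Egr3 and Dusp1 were higher, both on few counts, with 4, 12 and 6 and with 6, 12 and 5 in members. Of 9 interferon response genes none passed the limit either way. In the T cell receptor complex, Trac and Cd4 were higher among 13 genes, and Trac stood at 967, 963 and 911 CPM in members, against 641, 538 and 555 CPM. Hif1a, the oxygen-sensing factor, Gapdh and Odc1 were higher and Myc was lower among 10 genes of metabolism and translation.

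RNA of other cell types was read beside these results. Of 12 B cell genes tested, Ighm alone was higher in members, at 545, 767 and 698 CPM, against 358, 456 and 427 CPM in other Foxp3-zero CD4 cells. The B cell list summed to 1187, 2119 and 2135 CPM in members, against 1015, 1735 and 1997 CPM in the other cells, and Cd79a was at 0 by definition. The neutrophil genes S100a8 and S100a9 were lower in members, and the myeloid list summed to 732, 459 and 219.6 CPM, against 2654, 767 and 578 CPM. Red cell genes summed to 1138, 103 and 126 CPM in members, against 8903, 101 and 2218 CPM in the other cells, and were highest in library 1 in both groups. With the cells over 10 UMIs of red cell or myeloid genes left out, 5 of 217 members and 20 of 1458 other cells, the mean log2 ratio of S100a9 turned to 0.014. The list of gamma delta T cell genes summed to 232, 35.0 and 3.60 CPM in members, against 66.4, 10.6 and 20.6 CPM, with Tcrg-C2 in 6 members of library 1 and 4 of the 7 genes at 0 there. Of the plasma cell list 2 genes were tested and none passed, and no gene of the CD8, natural killer and platelet lists reached 20 CPM over the pooled libraries of either group. The part of these RNAs in the other results was not tested beyond leaving out these cells.

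Most other Foxp3-zero CD4 cells had little CD44, an adhesion receptor that rises on activated and memory T cells, so a second comparison used only those whose CD44 antibody count reached the 25th percentile of the members of the same library. This left 126, 128 and 125 cells. Against them, 224 of 6794 genes (3.30%) were higher in members and 121 (1.78%) lower. On the Tfh list 12 of 29 were still higher and none lower, with a median log2 ratio of 1.08 against 0.09 over all genes. These 12 were Bcl6, Il21, Cd200, Sh2d1a, Ascl2, Tox, Slamf6, Rgs16, Hif1a, Prkca, Nfatc1 and Pou2af1. Il21 was the weakest of them in library 1, with a ratio of 1.51 (0.654 to 3.41). Bcl6 had 8.06, 10.1 and 11.9 CPM in the CD44-matched cells, with ratios of members over them of 4.04 (1.08 to 18.3), 6.91 (2.69 to 22.6) and 4.84 (1.88 to 13.9). Bcl6, Cenpa, a centromere gene, and Nrn1 joined the 15 genes with the largest ratios in this comparison.

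Only Satb1 and Il7r of the 12 naive genes were lower than in CD44-matched cells. Il7r stood at 321, 253 and 335 CPM in members, against 749, 813 and 765 CPM in CD44-matched cells. Among cytotoxic and T helper 1 genes, Ifng and Ccl4 were higher, and Cxcr6, Id2 and Ly6c2 were lower. Without the member with most Ccl4 UMIs in each library, Ccl4 stood at 55.6, 4.15 and 7.34 CPM in members. The CD44-matched cells had 48.3, 4.05 and 3.40 CPM, so Ccl4 no longer passed the limit in libraries 1 and 2. Cxcr6, a homing receptor of tissue and T helper 1 cells, stood at 77.2, 12.3 and 10.8 CPM in members, against 175, 154 and 196 CPM. Id2, an inhibitor of E proteins that is low in Tfh, stood at 232, 169 and 202 CPM, against 461, 469 and 549 CPM. Klrk1, which encodes the receptor NKG2D, had 0 counts in members of every library, against 32, 24 and 46 counts in CD44-matched cells. RNA of other cell types moved with these genes. The natural killer list summed to 48.8, 4.11 and 21.6 CPM in members, against 105, 70.8 and 216 CPM in CD44-matched cells, and Klrb1c, which encodes NK1.1, was lower in members. The myeloid list summed to 732, 459 and 219.6 CPM in members, against 4783, 2385 and 2397 CPM, with 5 of 10 genes lower, and 5 of 217 members, against 20 of 379 CD44-matched cells, held over 10 UMIs of red cell or myeloid genes. Their part in the lower genes was not tested. Ikzf2 remained higher, with ratios of 2.51, 2.38 and 4.55, and Egr1 and Egr3 were the activation genes past the limit. Other lists shrank against the CD44-matched cells. Of 9 aged PD-1 cell genes, 3 were higher, Spp1, Ccl4 and the marker Sostdc1. Of 17 memory and migration genes tested, Anxa2 was higher, and Anxa1 and Ccr2 were lower. Of 12 cell cycle genes, 3 were higher, and of 10 regulatory genes tested, 3 were higher, Ikzf2, Tnfrsf9 and Lag3. A Mki67 or Top2a UMI was found in 13 of 60, 13 of 104 and 13 of 53 members. The CD44-matched cells had one in 25 of 126, 14 of 128 and 10 of 125 cells.

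Surface protein gave a readout that the definition did not use, apart from CD4 and CD8a. The median count of the CD279(PD-1) antibody was 10, 12 and 11 in members, against 5, 6 and 6 in other Foxp3-zero CD4 cells, and 6, 8 and 6 in CD44-matched cells. PD-1 counts above the 90th percentile of the other cells were found in 41.7% (29.1 to 55.1), 48.1% (38.2 to 58.1) and 54.7% (40.4 to 68.4) of members. Members with no Pdcd1 UMI, chosen by the other markers alone, still had medians of 8, 8 and 10, against 5, 6 and 6 in the other cells without a Pdcd1 UMI. In library 2 they did not exceed the median of all CD44-matched cells, which was 8. Foxp3-positive CD4 cells had medians of 6, 10 and 7. In members with a Pdcd1 UMI the medians were 11.5, 17 and 13.5. The quartiles overlapped between members and other cells in all 3 libraries, so PD-1 protein was higher in members without separating the groups.

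CD44 and CD38 were the other antibodies whose median was over 1.5-fold that of the other Foxp3-zero CD4 cells in every library, so 3 of 34 antibodies passed and none was lower by as much. CD44 had medians of 148, 244 and 209 in members, against 92, 62 and 51. CD38, an enzyme of NAD turnover at the cell surface, had 33.5, 27 and 29, against 14, 12 and 12. Against the CD44-matched cells none of the 34 passed in every library. The antibody to CD25, the protein of Il2ra, had medians of 5, 5 and 6 in members, against 5, 5 and 6 in other Foxp3-zero CD4 cells, while Foxp3-positive CD4 cells had 17.5, 9 and 30.5. By median, the CD25 protein of members was thus at the level of the other Foxp3-zero CD4 cells, although their Ikzf2 RNA lay between both kinds of cell. CD25 counts above the 90th percentile of the other cells were found in 10%, 12.5% and 18.9% of members. The shares of Foxp3-positive CD4 cells above it were 63.6%, 35.6% and 77.5%. In library 2 the quartiles of members (4 to 9) overlapped those of Foxp3-positive cells (6 to 19).

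**Figure D3:**
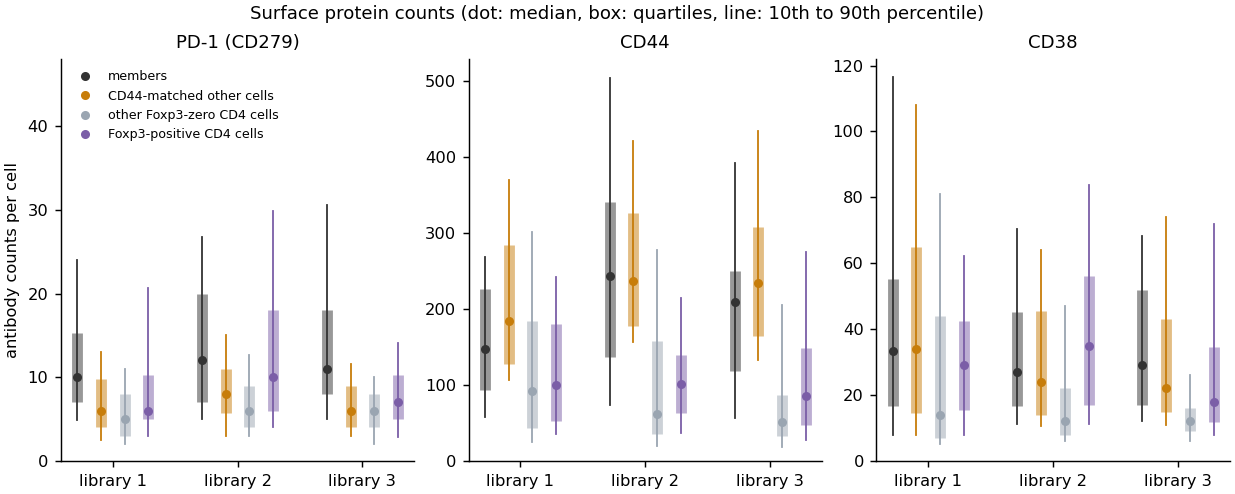
Antibody counts per cell for PD-1, CD44 and CD38 in members, CD44-matched cells, other Foxp3-zero CD4 cells and Foxp3-positive CD4 cells of each library. Dots are medians, boxes quartiles and lines the 10th to 90th percentile; PD-1 medians were 10, 12 and 11 in members against 5, 6 and 6 in other Foxp3-zero CD4 cells.

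The members were also split by Sostdc1, a marker of the definition. Those with a Sostdc1 UMI (8, 40 and 8 cells) differed from those without (52, 64 and 45 cells) in several Tfh genes, picked here after their values were seen. The split also divided members by marker number, since members without Sostdc1 needed 2 other markers and members with it only 1. Of 56 members with Sostdc1, 41 had at least 3 markers, against 88 of all 217 members. The part of marker number in these differences was not tested. Cd200 stood at 263, 395 and 691 CPM in members with Sostdc1, against 78.9, 97.9 and 86.4 CPM in members without. Tnfsf8 stood at 625, 727 and 311 CPM, against 158, 321 and 200.1 CPM. Il21 stood at 132, 385 and 104 CPM, against 37.1, 182 and 31.8 CPM, and Bcl6 at 132, 94.9 and 121 CPM, against 18.6, 54.0 and 40.9 CPM. Each of these 4 genes was higher with Sostdc1 in each library, though the counts behind Bcl6 in library 1 were 4 and 4. Il21 with Sostdc1 rested on 4, 73 and 6 counts. The interval of Tnfsf8 with Sostdc1 in library 3, 184 to 491 CPM, covered the value without. Cd200 with Sostdc1 in library 3 rested on 40 counts in 6 cells, among them the member with most Cd200 counts. Not all Tfh genes did so, since Sh2d1a stood at 427, 216 and 224 CPM in members with Sostdc1, against 543, 317 and 237 CPM in members without. The CD44 antibody had medians of 220, 307 and 234 with Sostdc1, against 130, 194 and 207 without.

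Several effector genes, also picked after their values were seen, ran the other way. Ccl5, a chemokine of cytotoxic and memory T cells, stood at 65.8, 52.7 and 34.5 CPM in members with Sostdc1, against 16346, 1762 and 3389 CPM in members without. Nkg7, a cytotoxic granule gene, had 0, 7 and 3 counts with Sostdc1, against 344, 86 and 79 counts without. Eomes, a transcription factor of cytotoxic and memory cells, had 0, 1 and 0 counts, against 51, 19 and 21. Mki67, a cell cycle gene rather than an effector gene, had 0, 3 and 0 counts, against 89, 142 and 39. Much of the latter counts came from 1 cell of each library, as given above. A Mki67 or Top2a UMI was found in 2, 4 and 3 members with Sostdc1. Among all members, 13 of 60, 13 of 104 and 13 of 53 had one. Ifng did not follow Ccl5, Nkg7 and Eomes, with 1, 19 and 4 counts (32.9, 100.1 and 69.1 CPM) with Sostdc1, against 16, 29 and 9 counts (74.2, 97.9 and 40.9 CPM) without. By CPM, the difference in Ccl5, Nkg7 and Eomes appeared in all 3 libraries, in cells that the same definition had brought together. In library 3 it rested on few cells. There Nkg7 was carried by 2 of 8 members with Sostdc1, and by 11 of all 53 members. Eomes was carried by 3 members of library 3. Ccl5 in all members of library 3 fell from 2689 to 855 CPM without its top cell. Median depth was 3475, 4394 and 5905 UMIs with Sostdc1, against 3413, 3853 and 4399 UMIs without.

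**Figure D4:**
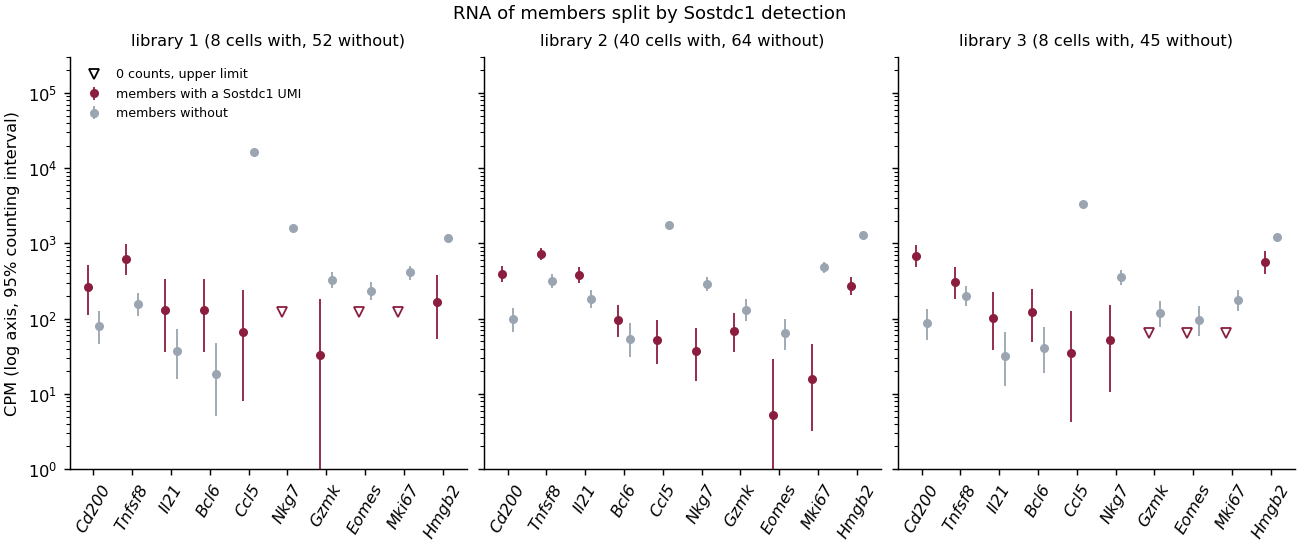
CPM (log axis, 95% counting intervals) of 10 genes in members with and without a Sostdc1 UMI, by library; an open triangle is the upper limit of a count of 0. Cd200, Tnfsf8, Il21 and Bcl6 stood higher in members with Sostdc1, and Ccl5, Nkg7 and Eomes in members without.

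The members were also split by Ccl5. A Ccl5 UMI was found in 24, 30 and 10 members, and 2, 9 and 1 of these also had Sostdc1, while 30, 43 and 36 members had neither. Over all libraries Sostdc1 was found in 12 of 64 members with Ccl5, against 56 of 217 members in all. By detection, members with Ccl5 and members with Sostdc1 were thus not opposed sets. Detection of a single Ccl5 UMI says little here, since 18.3% of B cells also had one, against 29.5% of members and 25.4% of other Foxp3-zero CD4 cells, so amounts are given. Gzmk stood at 531, 235 and 293 CPM in members with Ccl5, against 77.4, 52.7 and 37.0 CPM in members without. Nkg7 stood at 2861, 594 and 878 CPM, against 77.4, 20.5 and 129 CPM. Ikzf2 stood at 231, 470 and 472 CPM, against 1246, 976 and 721 CPM, and Tcf7 at 274, 270 and 277 CPM, against 627, 589 and 707 CPM. Tnfsf8 stood at 77.1, 207 and 114 CPM with Ccl5, against 340, 595 and 254 CPM without. Ikzf2, Tcf7 and Tnfsf8 were thus all lower with Ccl5 in each library. The median count of the CD279(PD-1) antibody was 10.5, 10.5 and 12 in members with Ccl5, against 10, 13.5 and 11 in members without, so the protein did not set them apart.

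Between libraries, 393 of 3459 genes of at least 50 CPM in members (11.4%) had a highest library over 2-fold above the lowest. The 10 genes with the largest such ratio were S100a8, Lgals3, Hbb-bt, Hba-a2, Spp1, Hba-a1, Ccl5, Hbb-bs, S100a9 and Angptl2. Of these, 4 are haemoglobin genes and 2 are neutrophil genes, and all 6 were highest in library 1, where the sum of red cell genes was also highest in the other Foxp3-zero CD4 cells.

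Other genes on this list were highest in library 1 or in library 2. Ccl5 stood at 14333 CPM in members of library 1, 1095 CPM in library 2 and 2689 CPM in library 3. One cell held 514 of the 747 counts of library 3, and without the top cell of each library the values were 12621, 852 and 855 CPM. Nkg7 stood at 1398, 191 and 295 CPM, and at 1150, 104 and 187 CPM without the top cells. S100a4 stood at 1744, 778 and 349 CPM. Among other Foxp3-zero CD4 cells Ccl5 was also highest in library 1, at 3718, 858 and 171 CPM. Not every effector gene was highest in library 1, since Ifng stood at 69.1, 98.8 and 46.8 CPM in members.

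Spp1, Angptl2 and Il21 were highest in library 2, while Sh2d1a and Tox of the Tfh list and Gzmk and Ccl4 of the aged PD-1 cell list were highest in library 1. Spp1 stood at 24.4, 344 and 36.0 CPM in members of libraries 1, 2 and 3, carried by 2, 17 and 3 cells, and 61 of the 167 counts of library 2 came from 1 cell, without which the value was 220.3 CPM. Angptl2, which encodes a secreted protein, stood at 16.3, 142 and 25.2 CPM, carried by 4, 29 and 6 cells. Il21 stood at 48.8, 261 and 46.8 CPM, and at 204 CPM in library 2 without its top cell. Sostdc1 itself, which took part in the choice, stood at 187, 574 and 212 CPM. Tnf stood at 8.13, 96.7 and 21.6 CPM, with 22 of 47 counts of library 2 in 1 cell. The labels do not tie these libraries to animals, so no age or treatment can be attached to these values.

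**Figure D5:**
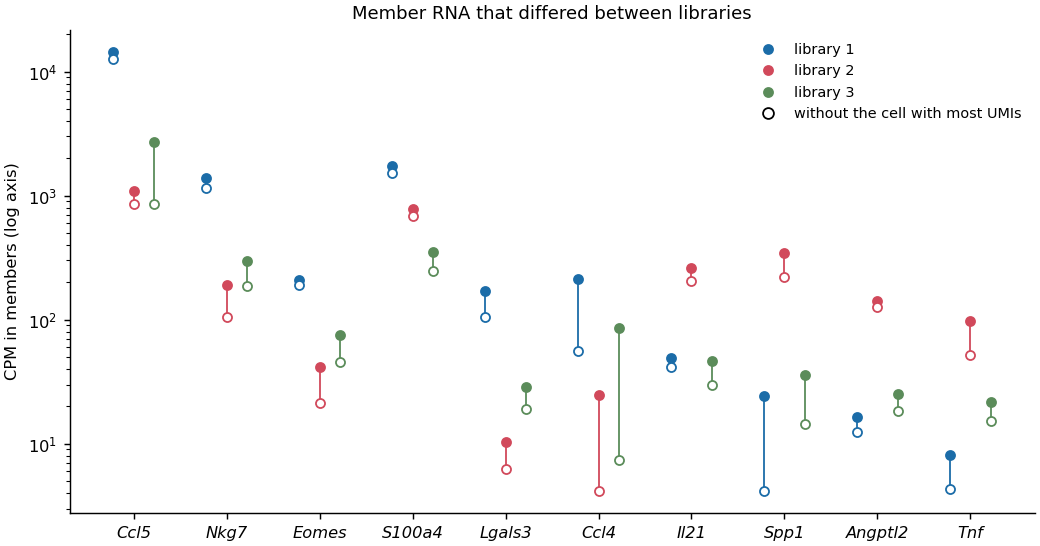
CPM in members (log axis) of 10 genes that differed over 2-fold between libraries, with all members (filled) and without the member with most UMIs of that gene (open). Ccl5 stood at 14333 CPM in library 1 against 1095 and 2689 CPM in libraries 2 and 3, and Spp1, Il21 and Angptl2 were highest in library 2.

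The whole deposit held 29005 barcodes with 31053 genes, 34 antibodies and 102118281 RNA UMIs, and 4199 to 8451 cells were kept per library. Of the barcode sequences, 68 occurred under more than 1 suffix, and 2 members carried such a sequence. Members held 246000, 486058 and 277766 RNA UMIs in libraries 1, 2 and 3, against 1009178, 1798662 and 3390171 in the other Foxp3-zero CD4 cells, so 1 count was worth more CPM in members.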

How the data were processed

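The authors deposited 1 matrix of raw UMI counts, with a row for each gene or antibody and a column for each barcode of all libraries. Cell Ranger 5.0.1 is named in its header, mm10 and Seurat in the submitters' processing notes. Libraries had been merged in Cell Ranger, and the sources used here do not state whether reads were subsampled then. The ending of a barcode served as a library name only.

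UMIs were summed over the cells of a group and library and divided by the group's RNA UMIs (CPM), with exact Poisson intervals. Shares have Clopper-Pearson intervals and ratios intervals from the exact binomial distribution. Calls are by size only, as stated, with the lower side set to 3 counts where a library had fewer. Ratios printed with intervals set only a side at 0 to 3 counts. List medians are medians of the middle library's log2 ratio after adding 0.5 counts. No test across cells was made. No doublet caller was run, and only the limit of 5000 genes and Cd79a at 0 bore on doublets. Named genes are the markers, 2 to 6 genes of each list, the 15 highest and 10 lowest against each kind of other cell among genes of at least 50 CPM, and the 10 most unequal between libraries. The markers, lists and members were chosen with earlier results of these data known. Some items are not reported here. Genes of the Sostdc1 and Ccl5 splits and Cxcr3 were chosen after their values were seen. Scripts were tested on simulated data. Python 3.11.15, NumPy 2.4.6, SciPy 1.17.1 and pandas 2.3.3 were used. Of the gene identifiers, 31011 (99.9%) matched the mm10 annotation.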

Additional observations from a re-analysis of the deposited data

How the results depend on the processing

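The member shares of libraries 1, 2 and 3 stayed in the order of both first libraries above library 3 under every alternative tried for the share. They were 6.39%, 9.31% and 2.09% with at least 3 markers, 14.2%, 14.0% and 4.12% with cells thinned to 2000 UMIs, and 10.95%, 7.44% and 2.70% with Foxp3 and Ikzf2 both at 0. The last of these left 23 of 210, 29 of 390 and 19 of 705 cells as members, from 60 of 313, 104 of 548 and 53 of 814. Without Cxcr5 in the definition the shares were 14.1%, 15.7% and 4.67%, without Maf 6.71%, 10.2% and 2.33%, and without Pdcd1 14.1% in library 1 and 4.42% in library 3. Genes higher and lower than in other Foxp3-zero CD4 cells, 509 and 134, became 242 and 46 at a 2-fold limit, 288 and 78 among genes of at least 50 CPM, and, for genes lower, 79 after thinning. Leaving out 1 library in turn gave 770 to 976 higher and 209 to 278 lower, since fewer libraries had to pass, with 976, 781 and 770 higher without library 1, 2 or 3. Genes over 2-fold between libraries were 104 among genes of at least 100 CPM. Of 220 named and listed genes followed without cells that had a Mki67 or Top2a UMI, 1 reversed, Tubb5 (mean log2 ratio -0.13), and of 223 without cells of red cell or myeloid RNA, 1 reversed, S100a9 (0.014). No gene reversed without Ccl5-carrying cells, with 5 B cell genes at 0 or with a library left out. This covers direction only, since more genes were marked as moved in size. These were 57 of 219 without Ccl5-carrying cells, 30 of 216 with 5 B cell genes at 0 and 59 of 216 after thinning. Without library 1, 2 or 3 they were 49 of 222, 27 of 221 and 39 of 220. The alternatives that left out cells by Mki67, Ccl5 or red cell RNA, and those without the top cell, were chosen after seeing the data. No paired analysis was possible because each group was 1 pooled library. Depth limits the rarest genes, since 1 count is 3.60 CPM in the members of library 3.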
